A study of Mus musculus with 20 samples.

Results

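The genes of glutathione and glucuronide conjugation were followed in mouse kidneys with and without telomerase, at a young and at an older age. Members were all genes of the table whose symbol names a glutathione S-transferase of the alpha, kappa, mu, omega, pi, theta or zeta class, a microsomal glutathione transferase, a glutathione peroxidase, an enzyme of glutathione synthesis or recycling, a gamma-glutamyl transferase, a UDP-glucuronosyltransferase, or Nqo1. This rule took 49 of the 19940 genes in the table (0.246%), in 16 role groups, and used names only, no measured value. It was chosen with earlier results of these data known.

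The 20 libraries came from kidneys of male mice, 1 library per mouse and 5 mice per group: G3 Tert-/- mice of 47 weeks (G3 Tert-/- old), Tert+/+ mice of 47 weeks (Tert+/+ old), G3 Tert-/- mice of 7 weeks (G3 Tert-/- young) and Tert+/+ mice of 7 weeks (Tert+/+ young). Tert encodes the reverse transcriptase of telomerase, G3 marks mice of generation 3 without it, and the title of the study concerns short telomeres and kidney fibrosis. No treatment is named for these mice, and the sources used here give neither their strain nor the cells that carry the deletion. The samples are labelled kidney, while their extraction protocol names both kidney tissue and PTCs, so whether each library is whole kidney was taken from the label. QuantSeq libraries sample the last bases of polyadenylated transcripts with strand kept, so counts do not scale with the length of a gene.

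Conjugation makes compounds more soluble in water so that they can be excreted. Glutathione S-transferases join reactive foreign compounds and products of lipid oxidation to the tripeptide glutathione, and UDP-glucuronosyltransferases join drugs, bilirubin and steroids to glucuronic acid. Glutathione peroxidases use the same tripeptide to reduce peroxides. In the kidney the proximal tubule, the segment that secretes most organic anions, carries much of this work. Several of these genes, Nqo1 and both subunits of glutamate-cysteine ligase among them, are textbook targets of the transcription factor NRF2.

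Libraries held 7161690 to 9757594 reads, of which members took 1.44 to 3.17%. Tert itself was counted with 5 to 8 reads in G3 Tert-/- old, 7 to 15 in Tert+/+ old, 1 to 6 in G3 Tert-/- young and 5 to 16 in Tert+/+ young kidneys. On the log2 scale the genotype difference was -0.64 ± 0.38 (SE) at 47 weeks and -1.43 ± 0.38 at 7 weeks, and neither passed the test in limma (adjusted p = 0.819 and 0.417). Which part of the gene was deleted is not stated in those sources, so the 3′ reads may lie outside it and do not check the labels. The libraries Tert+/+ old replicate 4 and Tert+/+ young replicate 1 stood apart: they held the highest or lowest value of their group for 76.2% and 71.4% of the tested members, against 67% and 64.1% of all tested genes. Tert+/+ old replicate 4 also had 462 normalized counts of albumin (Alb), a hepatocyte marker, against at most 89.8 in any other library. Proximal tubule markers were present in every library, with a summed level of 204164 to 288673 normalized counts in G3 Tert-/- old, 260077 to 340459 in Tert+/+ old, 252211 to 376673 in G3 Tert-/- young and 312530.2 to 501942 in Tert+/+ young kidneys.

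Levels differed widely between members. Averaged over all libraries, Gpx3, the peroxidase that the proximal tubule secretes into plasma, stood at 129476 normalized counts. The cytosolic peroxidase Gpx1 followed with 14196, and Ggt1, the brush border enzyme that splits glutathione outside the cell, with 6650. Among the transferases the mu class member Gstm1 led with 2977. The alpha class member Gsta2 averaged 921, the theta class members Gstt2 and Gstt1 1004 and 733, and the zeta class member Gstz1, an isomerase of tyrosine breakdown, 1401. Ugt2b38, of a family that glucuronidates steroids, averaged 2843, and Ugt3a2 1768. The ligase subunits Gclm (modifier) and Gclc (catalytic) averaged 2367 and 1807. Further leading members of their role groups were Gstk1 with 312, Gsto1 with 133, Mgst1 with 124, Ugt1a7c with 43.2, Gstp1 with 8.29 and Ugt8a, which makes galactosylceramide, with 556. The members Gpx2, Gsta1, Gstm3, Gsto2, Mgst2, Ugt1a5 and Ugt1a6a stayed below the filter of 10 normalized counts in at least 5 libraries, and 42 were tested. Gsta1, the untested alpha class member, averaged 6.4 ± 3.43 in G3 Tert-/- old, 4.09 ± 1.81 in Tert+/+ old, 2.9 ± 2.16 in G3 Tert-/- young and 1.61 ± 1.61 in Tert+/+ young kidneys (SD, n = 5 each).

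**Figure D1:**
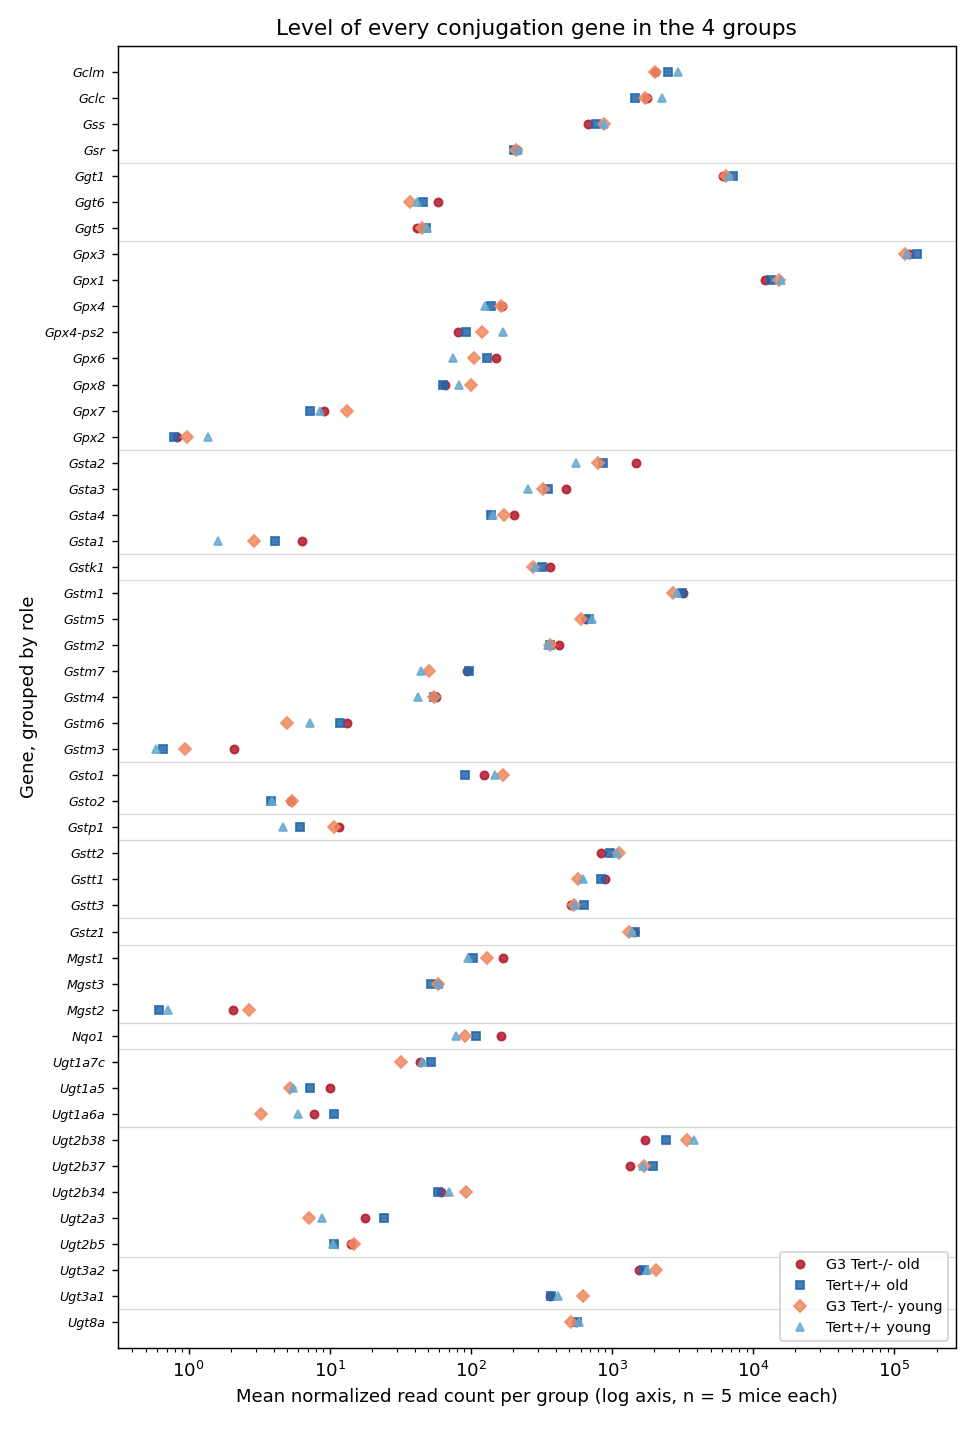
Mean normalized read count of each of the 49 members (rows, grouped by role) in the 4 groups on a log axis, 5 mice per group. Gpx3 stands highest in every group, between 119948 and 146363, and Gpx2 and Gstm3 lie lowest, at overall means of 0.99 and 1.07.

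Some members share sequence with other genes, and their values are uncertain. The last 300 bases of Gsta2 were 97.3% identical to a stretch of Gm10639, and 4 genes matched it at 90% or more over at least 50 bases. Gsta1 was 99.7% identical over 299 bases to Gm3776, and 4 genes matched it at that level as well. Gpx4 was 99.7% identical over 300 bases to Gpx4-ps2, and Gstp1 was 100% identical over 300 bases to Gstp2. Ugt1a5, Ugt1a6a and Ugt1a7c share 59.5%, 50.3% and 54.6% of their exonic bases with other genes of the Ugt1a locus. Ugt2b37 and Ugt2b38 were 87.8% identical, and the last bases of Gstt2 matched 138 genes at 90% or more over at least 50 bases.

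More members passed with age than with genotype. Of the 42 tested members, 9 passed the test in at least 1 of 7 comparisons, each of them in a comparison of ages: Gsta2, Gsta3, Gstm7, Gstt1, Nqo1 and Ugt2a3 rose at 47 weeks, and Gclc, Gsto1 and Ugt2b38 fell. In G3 Tert-/- kidneys 7 members passed, 6 higher and 1 lower at 47 weeks, where 2.24% of all 14630 tested genes passed (0.93% higher, 1.31% lower). In Tert+/+ kidneys 4 members passed, 3 higher and 1 lower, against 0.649% of all tested genes (0.403% higher and 0.246% lower). In the mean over both genotypes 8 members passed, 6 higher and 2 lower, against 4.49% of all tested genes (2.06% higher, 2.43% lower). The share of members that passed was thus above that of all genes in each of these comparisons, which share mice with each other. Members, like the other gene lists below, were chosen with earlier results of these data known. Such shares are therefore a description and not independent support. The median log2 fold change with age over the 42 members was 0.07 in G3 Tert-/- and 0.06 in Tert+/+ kidneys, against 0 over all tested genes in each. Old and young kidneys did not overlap for 6 members higher and 4 lower with age in G3 Tert-/-, where 4.6% of all tested genes did not (1.94% higher, 2.66% lower), and for 4 higher and 3 lower in Tert+/+ kidneys, where 2.53% did not (1.28% higher, 1.25% lower). P-values here set a difference against the spread between mice within groups, estimated over all 4 groups together. In bulk RNA fewer cells of a type and less RNA per cell cannot be told apart.

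**Figure D2:**
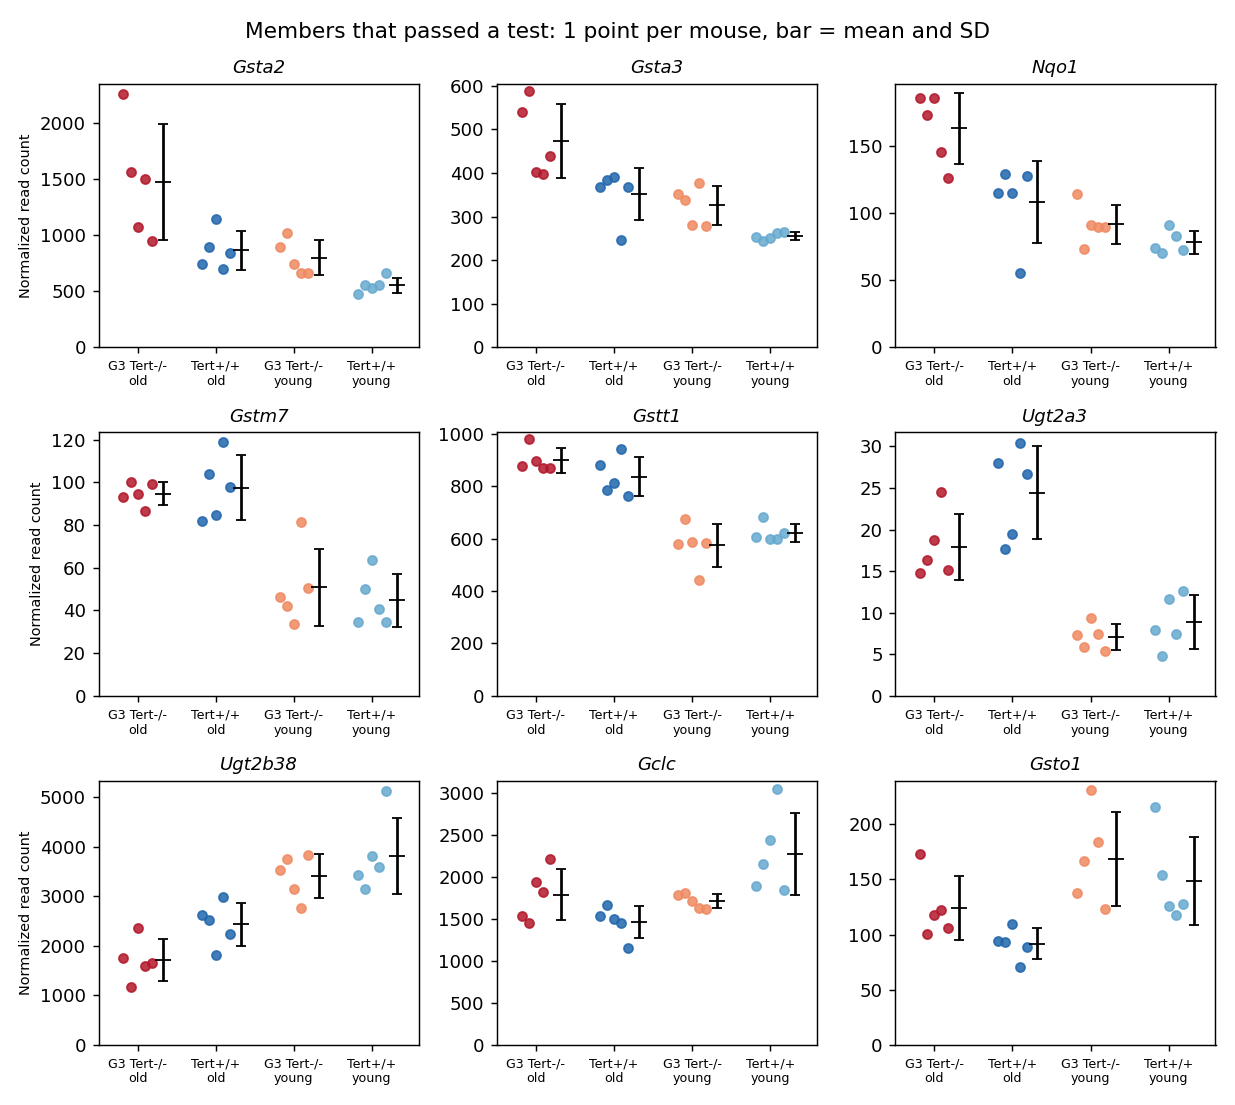
Normalized read counts of the 9 members that passed a test, 1 point per mouse, with mean and SD beside each group of 5. Gstm7, Gstt1 and Ugt2a3, which rise, and Ugt2b38, which falls, separate old from young mice in both genotypes. Gsta2, Gsta3 and Nqo1 are highest on average in G3 Tert-/- old kidneys.

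Starts of 4 of the members that rose are shown because Gsta2, Gsta3, Gstm7 and Nqo1 each rose with age, and because transferase genes and Nqo1 are known for antioxidant response elements, the sites of NRF2. Each is 250 bases before to 50 bases after a RefSeq transcript start (GRCm38.p6), 5′ to 3′ on the strand of the gene. Capitals mark matches, on either strand, to TGACNNNGC, a core of the antioxidant response element, or to TNGCGTG, a core of the xenobiotic response element bound by the aryl hydrocarbon receptor.
Gsta2 (chr9:78347096-78347395, minus strand): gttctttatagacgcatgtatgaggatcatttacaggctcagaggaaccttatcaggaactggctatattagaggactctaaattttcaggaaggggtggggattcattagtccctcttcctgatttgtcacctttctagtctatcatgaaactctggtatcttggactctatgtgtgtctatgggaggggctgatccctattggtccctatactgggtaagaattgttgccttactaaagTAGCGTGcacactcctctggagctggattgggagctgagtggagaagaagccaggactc
Gsta3 (chr1:21240335-21240634, plus strand): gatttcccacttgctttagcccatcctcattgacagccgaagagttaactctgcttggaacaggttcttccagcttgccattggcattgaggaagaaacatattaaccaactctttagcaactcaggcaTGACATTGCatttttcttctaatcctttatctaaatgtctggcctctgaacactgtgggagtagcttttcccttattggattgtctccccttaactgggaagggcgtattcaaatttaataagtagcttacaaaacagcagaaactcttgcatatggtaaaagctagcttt
Gstm7 (chr3:107931565-107931864, minus strand): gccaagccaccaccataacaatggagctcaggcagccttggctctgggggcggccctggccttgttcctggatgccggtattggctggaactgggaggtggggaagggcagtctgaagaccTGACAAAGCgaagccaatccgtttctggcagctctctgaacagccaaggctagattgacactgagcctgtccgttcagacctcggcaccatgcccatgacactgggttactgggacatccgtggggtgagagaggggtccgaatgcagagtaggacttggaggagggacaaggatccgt
Nqo1 (chr8:107403156-107403455, minus strand): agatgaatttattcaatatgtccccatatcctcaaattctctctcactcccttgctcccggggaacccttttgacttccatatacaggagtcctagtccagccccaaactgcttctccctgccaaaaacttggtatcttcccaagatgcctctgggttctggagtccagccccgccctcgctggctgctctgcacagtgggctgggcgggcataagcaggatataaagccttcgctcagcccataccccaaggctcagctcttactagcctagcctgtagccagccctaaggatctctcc

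In these windows Gsta3 and Gstm7 held TGACNNNGC, with its first base 121 and 129 bases before the start, and Gsta2 held TNGCGTG 9 bases before the start. The window of Nqo1 held neither motif. For Gstm7 the window shown is that of a start inside the gene as annotated here. The other RefSeq window of Gstm7 (chr3:107931768-107932067, minus strand) held neither motif. That window belongs to the start at the 5′ end of the gene. Sites more than 250 bases before a start lay outside these windows and were not looked for. Gstt1 and Ugt2a3, the other members that rose with age, also held neither motif in their windows, which are not shown. Of all RefSeq starts, 12.4% of 32851 promoter windows held TGACNNNGC and 5.07% held TNGCGTG. By gene the shares were 14% and 5.84% of 27025 genes. Of the 42 member genes with a window, 6 held TGACNNNGC (14.3%: Gclm, Ggt1, Gsta3, Gstm5, Gstm7 and Mgst1) and 2 held TNGCGTG (4.76%: Gsta2 and Ugt1a5). The share among members was close to that among all genes. Members without a window were Gclc, Ggt5, Gpx4-ps2, Gsr, Gsta4, Gstt2 and Ugt3a2.

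Among the enzymes that make and recycle glutathione, Gclc fell with age in Tert+/+ kidneys. Gclc (chr9:77754535-77794485, plus strand of GRCm38) encodes the catalytic subunit of glutamate-cysteine ligase, which catalyses the rate-limiting step of glutathione synthesis. It had 1528, 1669, 1501, 1445 and 1151 normalized counts in Tert+/+ old kidneys, against 1886, 2148, 2435, 3042 and 1848 in Tert+/+ young kidneys. Every old mouse lay below every young one, and the log2 fold change was -0.62 ± 0.13 (adjusted p = 0.0267 in limma; errors of log2 fold changes are SE). In mice without telomerase it had 1529.5, 1451, 1932, 1821 and 2206 in G3 Tert-/- old kidneys, against 1779, 1808, 1715, 1631 and 1613 in G3 Tert-/- young kidneys. There the groups overlapped, with a log2 fold change of 0.05 (95% interval -0.23 to 0.33). The call in Tert+/+ kidneys was lost without Tert+/+ old replicate 1 or 5 or without Tert+/+ young replicate 3 or 4, and then the adjusted p was at most 0.104.

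None of the other synthesis and recycling members passed with age. Gss, glutathione synthetase, had 667, 695, 702, 635 and 662 normalized counts in G3 Tert-/- old kidneys, against 966, 887, 756, 956 and 826 in G3 Tert-/- young kidneys. The groups did not overlap, and the log2 fold change of -0.38 ± 0.11 missed the threshold (adjusted p = 0.0865 in limma), though DESeq2 called it. Gclm and Gsr, glutathione reductase, had log2 fold changes of 0.01 and 0.04 in G3 Tert-/- kidneys and of -0.17 and -0.04 in Tert+/+ kidneys.

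Gsta2 and Gsta3 rose with age in mice without telomerase and over both genotypes. Both belong to the alpha class, which reduces lipid hydroperoxides and conjugates foreign electrophiles. Gsta2 (chr9:78331018-78355788, minus strand), with TNGCGTG in its start window, had 2263, 1566, 1069.9, 1504 and 949.7 normalized counts in G3 Tert-/- old kidneys, against 898, 1015, 744, 663 and 661 in G3 Tert-/- young kidneys. Only the lowest old value lay within the young range, and the log2 fold change was 0.84 ± 0.19 (adjusted p = 0.0153 in limma). In mice with telomerase it had 739, 896, 1146, 698 and 839 in Tert+/+ old kidneys, against 474, 556, 527, 556 and 658 in Tert+/+ young kidneys. These groups did not overlap, and the log2 fold change of 0.62 ± 0.19 did not pass (adjusted p = 0.149). Over both genotypes the log2 fold change was 0.73 ± 0.13 (adjusted p = 0.00143).

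Gsta3 (chr1:21240589-21265661, plus strand), with TGACNNNGC in its start window, had 539, 588, 403, 398 and 438 normalized counts in G3 Tert-/- old kidneys, against 352, 339, 279.7, 378 and 278 in G3 Tert-/- young kidneys. Every old mouse stood above every young one, with a log2 fold change of 0.53 ± 0.13 (adjusted p = 0.0345 in limma). With telomerase it had 368, 384, 390.4, 247 and 368 in Tert+/+ old kidneys, against 254, 243, 251, 262 and 264 in Tert+/+ young kidneys. Tert+/+ old replicate 4 alone fell within the young range. Over both genotypes the log2 fold change was 0.49 ± 0.10 (adjusted p = 0.00304). In Tert+/+ kidneys alone it was 0.44 ± 0.13 (adjusted p = 0.163), and without Tert+/+ old replicate 4 and Tert+/+ young replicate 1 Gsta3 passed. The call in G3 Tert-/- kidneys held in 13 of 20 fits that left out 1 library and was lost without G3 Tert-/- old replicate 1, 2 or 5 or young replicate 1, 2, 3 or 5, where the adjusted p reached 0.118. Gsta4, which conjugates the lipid aldehyde hydroxynonenal, had log2 fold changes with age of 0.26 in G3 Tert-/- and 0.01 in Tert+/+ kidneys and did not pass.

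Gstm7 of the mu class rose with age in both genotypes. Gstm7 (chr3:107926334-107931817, minus strand) had 93, 100.3, 94.5, 86.8 and 99 normalized counts in G3 Tert-/- old kidneys, against 46.3, 42.1, 33.9, 81.4 and 50.4 in G3 Tert-/- young kidneys. In Tert+/+ old kidneys it had 81.9, 104, 84.7, 119 and 97.9, against 34.4, 50.2, 63.6, 40.7 and 34.5 in Tert+/+ young kidneys. All old mice lay above all young ones. Gstm7 rose by a log2 fold change of 0.95 ± 0.20 (adjusted p = 0.00933 in limma) without and 1.14 ± 0.20 (adjusted p = 0.00313) with telomerase, and the ratio of means over both genotypes was 2.01. Of the 6 tested mu class genes only Gstm7 passed, and Gstm1, the most abundant, had a log2 fold change of 0.25 in G3 Tert-/- and 0.18 in Tert+/+ kidneys.

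Gstt1 rose with age in both genotypes as well. It encodes a theta class transferase that acts on small halogenated hydrocarbons (chr10:75783813-75798584, minus strand). It had 878, 978, 896, 869 and 869 normalized counts in G3 Tert-/- old kidneys, against 578, 675, 588, 444 and 585 in G3 Tert-/- young kidneys. Tert+/+ old kidneys had 882, 785, 811, 940.3 and 763, against 608, 683, 599, 599.8 and 622 in Tert+/+ young kidneys. Old and young mice did not overlap in either genotype. With age Gstt1 rose by a log2 fold change of 0.66 ± 0.10 (adjusted p = 0.000373 in limma) in G3 Tert-/- and 0.42 ± 0.10 (adjusted p = 0.0467) in Tert+/+ kidneys. The second call was close to the threshold: it held in 3 of 20 fits that left out 1 library, those without G3 Tert-/- young replicate 2 or 4 or Tert+/+ young replicate 2, and without both libraries that stood apart the log2 fold change was 0.37 (adjusted p = 0.119). Its neighbours in the class, Gstt2 and Gstt3, did not pass.

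Gsto1 was lower in old kidneys over both genotypes. Gsto1 (chr19:47854970-47864790, plus strand) is an omega class enzyme that reduces dehydroascorbate. It had 173, 100.3, 118, 122 and 106 normalized counts in G3 Tert-/- old kidneys, against 138, 167, 231, 184 and 123 in G3 Tert-/- young kidneys. In Tert+/+ old kidneys it had 94.3, 93.6, 110, 70.9 and 89, against 216, 154, 126, 118 and 128 in Tert+/+ young kidneys. The Tert+/+ groups did not overlap and the G3 Tert-/- groups did. The log2 fold change of Gsto1 over both genotypes was -0.55 ± 0.13 (adjusted p = 0.0156 in limma), with -0.43 (adjusted p = 0.264) in G3 Tert-/- and -0.67 (adjusted p = 0.12) in Tert+/+ kidneys, neither of which passed.

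Nqo1, a quinone reductase and a widely used marker of NRF2 activity, rose with age in mice without telomerase and over both genotypes. Nqo1 (chr8:107388225-107403206, minus strand) had 186, 173, 186, 146 and 126 normalized counts in G3 Tert-/- old kidneys, against 114, 73.4, 91.4, 89.7 and 90 in G3 Tert-/- young kidneys. The groups did not overlap, and the log2 fold change was 0.82 ± 0.19 (adjusted p = 0.0199 in limma). In Tert+/+ old kidneys it had 115, 129, 115, 55.2 and 128, against 73.8, 70.4, 91, 83.2 and 72.4 in Tert+/+ young kidneys. Of these, Tert+/+ old replicate 4 lay below all 5 young mice. Over both genotypes the log2 fold change was 0.62 ± 0.13 (adjusted p = 0.00725). In Tert+/+ kidneys alone it was 0.41 ± 0.19 (adjusted p = 0.433), and Nqo1 passed there once Tert+/+ old replicate 4 and Tert+/+ young replicate 1 were left out. In G3 Tert-/- kidneys the call held in 17 of 20 fits that left out 1 library and was lost without old replicate 2 or 3 or young replicate 2 (adjusted p up to 0.0688).

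The UDP-glucuronosyltransferases of family 2 moved in both directions with age. Ugt2a3 (chr5:87324972-87337195, minus strand), a low-level member that glucuronidates bile acids in humans, had 14.8, 16.4, 18.7, 24.5 and 15.2 normalized counts in G3 Tert-/- old kidneys, against 7.27, 5.87, 9.42, 7.47 and 5.36 in G3 Tert-/- young kidneys. Tert+/+ old kidneys had 28, 17.7, 19.5, 30.4 and 26.7, against 7.87, 4.82, 11.7, 7.39 and 12.6 in Tert+/+ young kidneys. Values of old and young mice were separate in both genotypes. On the log2 scale Ugt2a3 rose by 1.23 ± 0.27 (adjusted p = 0.0126 in limma) in G3 Tert-/- and 1.40 ± 0.27 (adjusted p = 0.00852) in Tert+/+ kidneys. The call in G3 Tert-/- kidneys was at the threshold without G3 Tert-/- old replicate 4 (adjusted p = 0.0501).

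Ugt2b38, on the same chromosome (chr5:87409942-87424203, minus strand), fell. It had 1751, 1174, 2364, 1594 and 1662 normalized counts in G3 Tert-/- old kidneys, against 3536, 3746, 3149, 2762 and 3832 in G3 Tert-/- young kidneys, a ratio of means of 0.502. In Tert+/+ old kidneys it had 2622, 2516, 1806, 2985 and 2233, against 3437, 3148, 3813, 3595 and 5129 in Tert+/+ young kidneys. Neither pair of groups overlapped. The log2 fold change of -1.02 ± 0.16 passed in G3 Tert-/- kidneys (adjusted p = 0.000741 in limma), and that of -0.65 ± 0.16 in Tert+/+ kidneys did not (adjusted p = 0.0657) unless both libraries that stood apart were left out. Its near copy Ugt2b37 had log2 fold changes of -0.41 in G3 Tert-/- and 0.23 in Tert+/+ kidneys, and neither passed.

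No gamma-glutamyl transferase, no glutathione peroxidase and no member of the kappa, pi, zeta or microsomal classes, nor of the UDP-glucuronosyltransferase families 1, 3 and 8, passed with age in limma, and DESeq2 called Gpx1 as lower in the mean over both genotypes. Gpx3 had 102679, 109102, 145420, 158755 and 123876 normalized counts in G3 Tert-/- old kidneys, against 109821, 116595, 65303, 201729 and 106292 in G3 Tert-/- young kidneys. These ranges overlapped, and the log2 fold change was 0.17 (95% interval -0.33 to 0.66) in G3 Tert-/- and 0.22 (95% interval -0.27 to 0.72) in Tert+/+ kidneys. Gpx1 had -0.33 and Ggt1 -0.07 in G3 Tert-/- kidneys, and -0.21 and 0.07 in Tert+/+ kidneys. Gstk1, a peroxisomal and mitochondrial transferase, had 0.41 ± 0.13 (adjusted p = 0.112 in limma) in G3 Tert-/- kidneys.

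Some members without a call still had separate groups in 1 genotype. Ggt6, a gamma-glutamyl transferase relative, had 61.3, 63.4, 53, 51.1 and 64.7 normalized counts in G3 Tert-/- old kidneys, against 41.8, 47, 32, 33.2 and 32.2 in G3 Tert-/- young kidneys. Every old mouse was higher, with a log2 fold change of 0.65 ± 0.20 (adjusted p = 0.0969 in limma). Ugt3a1 had 416, 403, 346, 337 and 313 in G3 Tert-/- old kidneys, against 649, 636, 648, 658 and 552 in G3 Tert-/- young kidneys. Every old mouse was lower, and its log2 fold change of -0.80 ± 0.41 did not pass (adjusted p = 0.367), while the Tert+/+ groups spread widely, with 70.9 to 490.1 in Tert+/+ old against 152 to 735 in Tert+/+ young kidneys. Gstt2, also lower in every G3 Tert-/- old mouse, had -0.42 ± 0.15 (adjusted p = 0.183).

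Other members without a call varied widely between mice of a group. Gstm6 averaged 13.2 ± 7.47 normalized counts in G3 Tert-/- old and 5.01 ± 3.68 in G3 Tert-/- young kidneys (SD, n = 5 each), and its log2 fold change of 1.37 ± 0.49 did not pass (adjusted p = 0.166 in limma). Gpx6 averaged 150.2 ± 53.6 in G3 Tert-/- old, 131 ± 65.8 in Tert+/+ old, 105 ± 28.8 in G3 Tert-/- young and 74.8 ± 34.7 in Tert+/+ young kidneys. Mgst1 averaged 168 ± 55.1 in G3 Tert-/- old, 103 ± 46.2 in Tert+/+ old, 130.3 ± 69.9 in G3 Tert-/- young and 95.7 ± 46.2 in Tert+/+ young kidneys. Gpx6 and Mgst1 passed in no comparison in limma over all 20 libraries, and their groups overlapped, while Gpx6 passed over both genotypes without the 2 libraries that stood apart. Gstz1 and Gstm5 had narrower spreads, and their log2 fold changes with age lay between -0.08 and 0.12 in the 2 genotypes. Over the 42 tested members the median SD within groups was 0.32 on the log2 scale, against 0.3 over all tested genes.

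**Figure D3:**
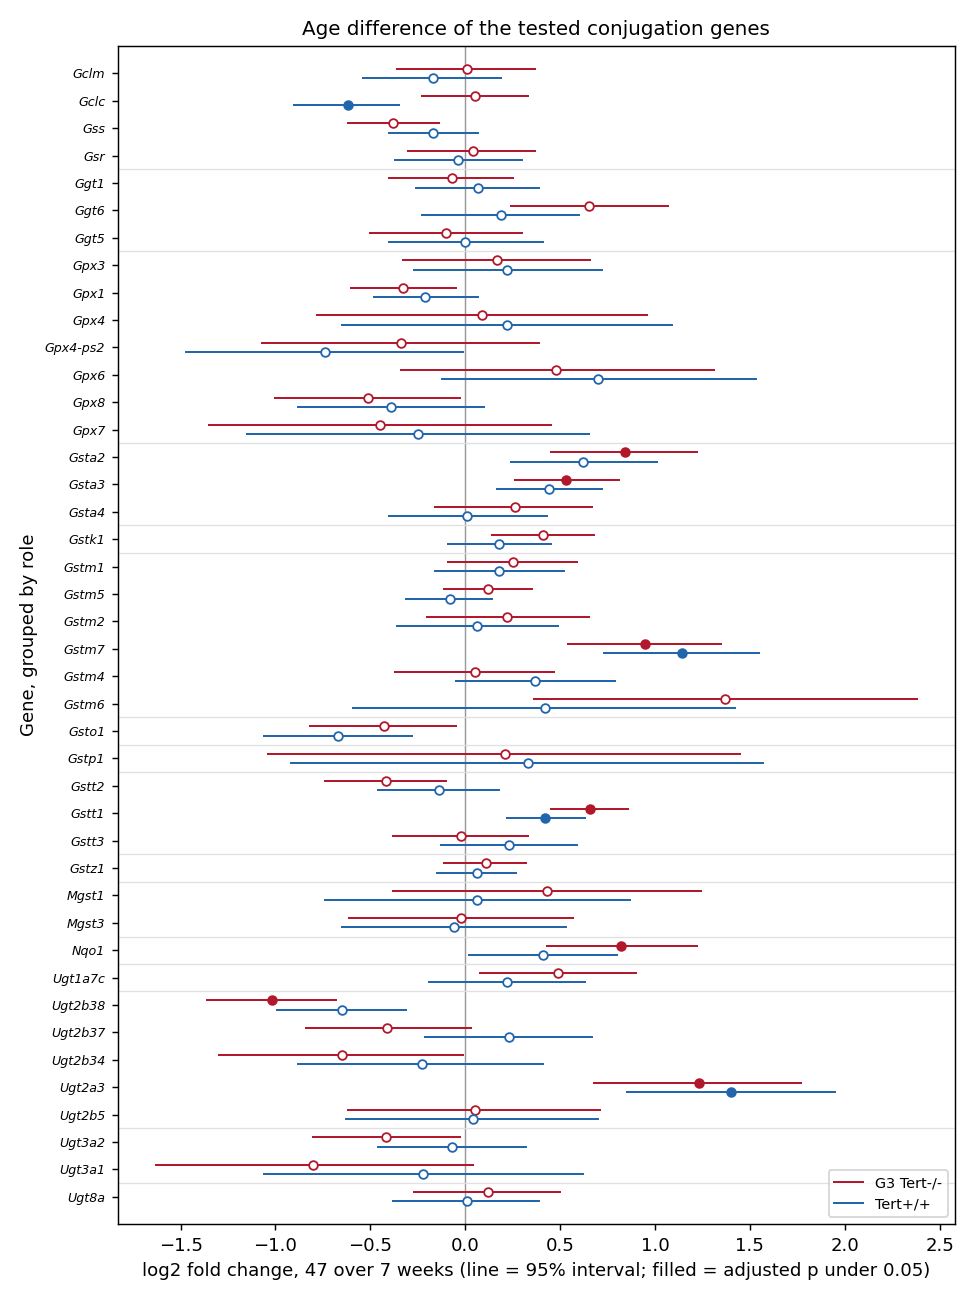
log2 fold change at 47 over 7 weeks for each of the 42 tested members, in G3 Tert-/- (red) and Tert+/+ (blue), with 95% intervals as lines. Filled points mark an adjusted p under 0.05: 7 in G3 Tert-/- and 4 in Tert+/+ kidneys, of which Gstm7, Gstt1 and Ugt2a3 are filled in both.

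Gstm7, Gstt1 and Ugt2a3 passed with age in both genotypes, and the other calls were in 1 genotype or in the mean only. That does not show that genotypes differ in their age change. The difference between the genotype effects at 47 and at 7 weeks, which is also the difference between the age effects, passed for 0 of the 42 members in limma, where 0.00684% of all tested genes passed. At an unadjusted p under 0.05 there were 2 members, against 6.22% of all tested genes, and edgeR and DESeq2 called 0. Gclc had the smallest p, with a difference of 0.67 ± 0.19 on the log2 scale (95% interval 0.28 to 1.07, adjusted p = 0.743 in limma). Ugt2b37 had -0.64 ± 0.30 (adjusted p = 0.793) and Gstt1 0.23 ± 0.14 (adjusted p = 0.821). For Gsta2 the difference was 0.21 (95% interval -0.33 to 0.76), and for Nqo1 it was 0.41 (95% interval -0.14 to 0.97).

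Genotype gave no member call in limma at either age, while the alpha class and Nqo1 stood higher on average without telomerase. At 47 weeks 0 of 42 members passed, against 0.0957% of all tested genes. There 9 members had an unadjusted p under 0.05, against 6.58% of all tested genes, edgeR called 0 and DESeq2 called 1, Gsta2. The values of Gsta2 in G3 Tert-/- old kidneys, 949.7 to 2263 normalized counts, overlapped those of 698 to 1146 in Tert+/+ old kidneys. Its log2 fold change was 0.72 ± 0.19 (adjusted p = 0.209 in limma, 0.0321 in DESeq2). Gsta3 was the 1 member whose groups did not overlap at 47 weeks, with 398 to 588 in G3 Tert-/- old against 247 to 390.4 in Tert+/+ old kidneys, where 2.31% of all tested genes did not overlap (0.875% higher, 1.44% lower). Its log2 fold change was 0.43 ± 0.13 (adjusted p = 0.439). Gsta4, with 149.6 to 249.6 in G3 Tert-/- old against 114 to 158 in Tert+/+ old kidneys, had 0.51 ± 0.20 (adjusted p = 0.653).

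The summed level of the 4 alpha class genes was 2152 ± 590.5 normalized counts in G3 Tert-/- old, 1359 ± 228 in Tert+/+ old, 1296 ± 167 in G3 Tert-/- young and 954 ± 46.2 in Tert+/+ young kidneys (SD, n = 5 each). Nqo1 at 47 weeks ranged from 126 to 186 in G3 Tert-/- old, against 55.2 to 129 in Tert+/+ old kidneys, with a log2 fold change of 0.63 ± 0.19 (adjusted p = 0.413 in limma). Without both libraries that stood apart this was 0.41 (adjusted p = 0.454). Ugt2b38 ran the other way, with 1174 to 2364 in G3 Tert-/- old against 1806 to 2985 in Tert+/+ old kidneys and a log2 fold change of -0.52 ± 0.16 (adjusted p = 0.436). Over the 42 members the median log2 fold change at 47 weeks was 0.06, against 0.01 over all tested genes.

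At 7 weeks 0 of 42 members passed in limma, as did 0% of all tested genes. There were 6 members with an unadjusted p under 0.05, against 10.7% of all tested genes, and edgeR and DESeq2 called 0. Gsta2, with 661 to 1015 normalized counts in G3 Tert-/- young against 474 to 658 in Tert+/+ young kidneys, and Gsta3, with 278 to 378 against 243 to 264, did not overlap between genotypes. Their log2 fold changes were 0.51 ± 0.19 and 0.34 ± 0.13 (adjusted p = 0.435 for each in limma). Gclc was the third member without overlap, in the other direction, where 1.4% of all tested genes did not overlap (0.602% higher, 0.8% lower). It had 1613 to 1808 in G3 Tert-/- young against 1848 to 3042 in Tert+/+ young kidneys, with -0.39 ± 0.13 (adjusted p = 0.435). Gclm, the modifier subunit of the same ligase, had 2439.9, 1898, 1498, 1982 and 2358 in G3 Tert-/- young kidneys, against 4912, 2267, 2633, 2550 and 2228 in Tert+/+ young kidneys. Its highest value came from Tert+/+ young replicate 1, and the log2 fold change of -0.47 ± 0.18 became -0.27 without both libraries that stood apart.

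Averaged over both ages, 0 of 42 members passed in limma, against 0.0273% of all tested genes. An unadjusted p under 0.05 was found for 10 members, against 11.1% of all tested genes, edgeR called 0, and DESeq2 called Gsta2 (adjusted p = 0.00458) and Gsta3 (adjusted p = 0.0301). In limma Gsta2 had a log2 fold change of 0.61 ± 0.13 (adjusted p = 0.12), Gsta3 0.38 ± 0.10 (adjusted p = 0.156) and Nqo1 0.43 ± 0.13 (adjusted p = 0.314). Gsta2 passed in limma in 1 of 20 fits that left out 1 library, the fit without G3 Tert-/- old replicate 5 (adjusted p = 0.0354). The 95% intervals for Gstt1, -0.16 to 0.13, and for Gstm7, -0.22 to 0.35, bound the genotype difference of both on the log2 scale.

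**Figure D4:**
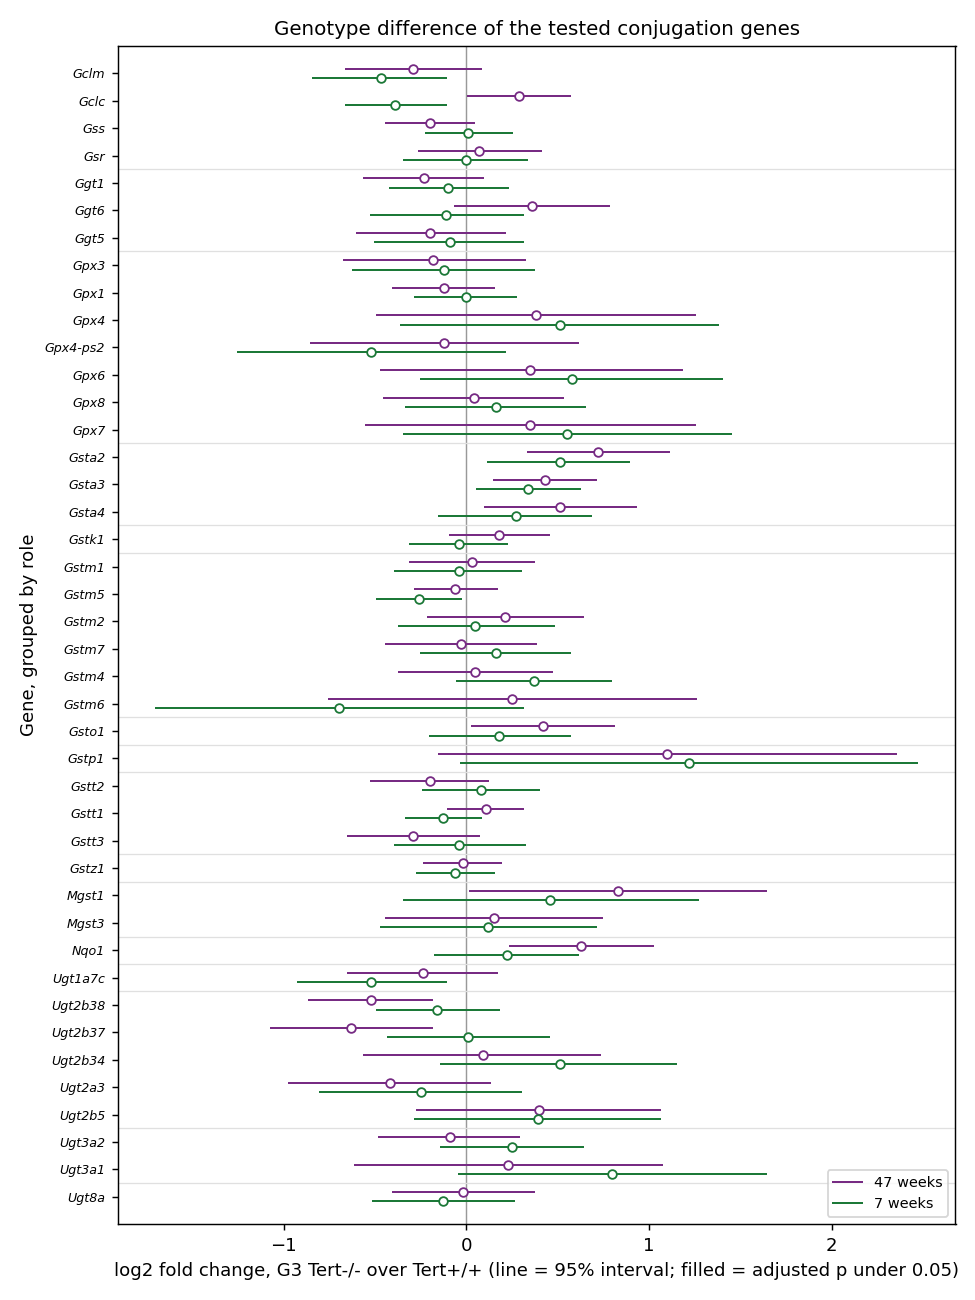
log2 fold change of G3 Tert-/- over Tert+/+ for each of the 42 tested members at 47 weeks (purple) and at 7 weeks (green), with 95% intervals as lines. No point is filled, since no adjusted p lies under 0.05, and the intervals of Gsta2 and Gsta3 lie above 0 at both ages.

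Among NRF2-responsive genes outside the member rule, 3 of 24 tested genes rose and 1 fell with age in G3 Tert-/- kidneys, where 2.24% of all tested genes passed. Abcc4, which exports organic anion conjugates at the tubule brush border, averaged 424 normalized counts in G3 Tert-/- old, 266 in Tert+/+ old, 163 in G3 Tert-/- young and 148 in Tert+/+ young kidneys. It rose with age in both, by a log2 fold change of 1.38 ± 0.14 (adjusted p = 2.2e-06 in limma) in G3 Tert-/- and 0.85 ± 0.14 (adjusted p = 0.00232) in Tert+/+ kidneys. Nfe2l2, the gene of NRF2 itself, rose in G3 Tert-/- kidneys by 0.52 ± 0.11 (adjusted p = 0.0145), as did Osgin1 by 0.67 ± 0.16 (adjusted p = 0.0264), and Fth1, ferritin heavy chain, fell by 0.52 ± 0.12 (adjusted p = 0.0248). Nfe2l2 averaged 1202 normalized counts in G3 Tert-/- old, 1075 in Tert+/+ old, 840.2 in G3 Tert-/- young and 1016 in Tert+/+ young kidneys. Its change with age in Tert+/+ kidneys was 0.07. The difference between these age effects was 0.44 ± 0.16 and did not pass (adjusted p = 0.774 in limma). Of 20 fits that left out 1 library, Abcc4 passed in 20 in each genotype, Nfe2l2 in 19, Fth1 in 15 and Osgin1 in 14. Hmox1, heme oxygenase, fell by 1.46 ± 0.40 over both genotypes (adjusted p = 0.036) and passed in 8 of those 20. Srxn1 and Txnrd1, further NRF2 targets, had log2 fold changes of -0.04 and 0.26 with age in G3 Tert-/- kidneys and did not pass, and nor did Keap1, the inhibitor of NRF2, with 0.04. None of the 24 passed for genotype in limma, with 2 at 47 weeks and 8 at 7 weeks at an unadjusted p under 0.05, against 6.58% and 10.7% of all tested genes.

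Transporters gave calls in both directions. Of 15 tested transporters of conjugates, 3 rose and 3 fell with age in G3 Tert-/- kidneys, against 2.24% of all tested genes in both directions, and 2 rose and 1 fell in Tert+/+ kidneys, against 0.649%. The gene lists overlap, so their counts are not separate. Abcc4 is counted here and among the NRF2-responsive genes. Slc22a6 and Slc22a8 are counted here, among mercapturate steps and among proximal tubule markers. Slco1a1, an organic anion uptake transporter, averaged 304 normalized counts in G3 Tert-/- old, 1256 in Tert+/+ old, 1723 in G3 Tert-/- young and 1764 in Tert+/+ young kidneys. Its genotype difference at 47 weeks was -2.10 ± 0.23 on the log2 scale (adjusted p = 5.73e-05 in limma) and passed in all 20 fits that left out 1 library. The difference from the genotype effect at 7 weeks was -2.09 ± 0.32 (adjusted p = 0.0199). This second call held in 10 of those 20 fits, with an adjusted p of up to 0.0732, and was lost without G3 Tert-/- old replicate 1, 2 or 4, Tert+/+ old replicate 1, 2 or 5, G3 Tert-/- young replicate 1, 3 or 5, or Tert+/+ young replicate 2. Abcb1a, a drug efflux pump, rose with age by 1.33 ± 0.23 in G3 Tert-/- and 1.09 ± 0.23 in Tert+/+ kidneys (adjusted p = 0.00216 and 0.0251), and passed in 20 and 15 of the 20 fits. Abcb1b rose in G3 Tert-/- kidneys by 1.93 ± 0.34 (adjusted p = 0.00216 in limma). Slco1a6 had log2 fold changes with age of -0.48 ± 0.11 in G3 Tert-/- and -0.59 ± 0.11 in Tert+/+ kidneys (adjusted p = 0.0223 and 0.00891).

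Of 18 tested genes of cysteine supply and mercapturate steps, 2 fell with age in G3 Tert-/- kidneys: Dpep1, which splits cysteinylglycine, by 0.56 ± 0.14 (adjusted p = 0.0347 in limma), and Slc22a6, an organic anion uptake transporter of the tubule, by 0.69 ± 0.18 (adjusted p = 0.0399). They passed in 12 and 7 of 20 fits that left out 1 library, and 2.24% of all tested genes passed in that comparison. Of 12 tested genes of UDP-glucuronate supply and reversal, Gusb, which cleaves glucuronides, fell by 0.81 ± 0.14 (adjusted p = 0.00251), and Akr1a1, which reduces glucuronate, fell by 0.43 ± 0.11 (adjusted p = 0.0371) in G3 Tert-/- kidneys, in 20 and 13 of those fits. Ugdh, which makes UDP-glucuronate, rose by 0.35 ± 0.08 over both genotypes (adjusted p = 0.00879). Papss1, which makes the sulfate donor, was lower without telomerase at 47 weeks, with a mean of 481 normalized counts in G3 Tert-/- old against 698 in Tert+/+ old kidneys (log2 fold change -0.53 ± 0.10, adjusted p = 0.0386). Of 17 tested sulfation and phase I genes, 1 was called for genotype at that age, against 0.0957% of all tested genes, and it passed in 5 of the 20 fits. Another list held 19 thiol and aldehyde enzymes, some of the glutathione and some of the thioredoxin system. Of these only the peroxiredoxin Prdx5 passed with age in G3 Tert-/- kidneys, against 2.24% of all tested genes. Prdx5 fell by 0.40 ± 0.10 (adjusted p = 0.0416 in limma), and passed in 5 of the 20 fits. None of 14 tested xenobiotic and lipid sensing regulators passed in any of the 7 comparisons in limma, with 0 to 3 of them at an unadjusted p under 0.05, and Ahr, the aryl hydrocarbon receptor, had log2 fold changes with age of -0.06 in G3 Tert-/- and 0.11 in Tert+/+ kidneys.

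Markers of cell types moved with age as well, 1 also with genotype, and their part in these results was not tested. The proximal tubule marker Acsm2 was lower without telomerase at 47 weeks, averaging 23105 normalized counts in G3 Tert-/- old against 34858 in Tert+/+ old kidneys. Its log2 fold change was -0.59 ± 0.11 (adjusted p = 0.0238 in limma), where 0.0957% of all tested genes passed. Acsm2 passed in 13 of 20 fits that left out 1 library. Of 14 proximal tubule markers 3 fell with age in G3 Tert-/- kidneys, against 2.24% of all tested genes in both directions, and 2 rose and 4 fell over both genotypes, against 4.49%. Their summed level averaged 245938 normalized counts in G3 Tert-/- old, 293226 in Tert+/+ old, 316654 in G3 Tert-/- young and 361074 in Tert+/+ young kidneys. Most of this sum was Kap, with 137119 in G3 Tert-/- old, 171571 in Tert+/+ old, 190473 in G3 Tert-/- young and 226714 in Tert+/+ young kidneys, and over the 14 markers the median log2 fold change with age was 0.01 in G3 Tert-/- and -0.12 in Tert+/+ kidneys. Summed B and plasma cell markers averaged 3147 in G3 Tert-/- old, 5513 in Tert+/+ old, 531 in G3 Tert-/- young and 339.5 in Tert+/+ young kidneys, and 4 of 6 tested rose with age over both genotypes. Of 10 markers of the thick ascending limb, distal convoluted tubule and collecting duct, 2 rose over both genotypes. These were Slc12a3, of the distal convoluted tubule, by 0.6 ± 0.08 and Slc12a1 by 0.61 ± 0.17 (adjusted p = 3.86e-05 and 0.0344 in limma). Among the 10, 5 had a log2 fold change above 0 and 5 below 0, with a median of 0.02. Of 9 macrophage markers 2 rose, C1qb and Cd74 (adjusted p = 0.0218 and 0.0321 in limma). Beside these counts and that of B and plasma cell markers, 2.06% of all tested genes rose over both genotypes. Slc12a1 and Cd74 each passed in 10 of 20 fits that left out 1 library. Summed hepatocyte markers ranged from 1481 to 2327 in G3 Tert-/- old, 1652 to 4270.3 in Tert+/+ old, 1868 to 2472 in G3 Tert-/- young and 1805 to 2341 in Tert+/+ young kidneys. With age in G3 Tert-/- kidneys, 2 of 12 tested hepatocyte markers rose and 1 fell, against 2.24% of all tested genes. These were Apob (log2 fold change 1.82 ± 0.25, adjusted p = 9.74e-05 in limma), Serpina1a (1.93 ± 0.4, adjusted p = 0.00917) and Ttr (-1.52 ± 0.29, adjusted p = 0.00513). Mup3 was at 0 in all G3 Tert-/- old kidneys, where Alb averaged 65.3.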

How the data were processed

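RNA from kidneys of 20 mice was sequenced from its 3′ end with QuantSeq, per the labels' protocols, and 300 ng went into each library (RNA quality 5.0 to 7.5, mean 6.6). The submitters' processing notes name HTSeq 0.6.1, DESeq2, Bowtie 1.0.0, TopHat2 2.0.10, SAMtools 0.1.19, FastQC 0.11.7 and the build GRCm38. The authors deposited normalized counts per gene, a signal in which each value is a whole number of reads times 1 step per library. Whole reads were recovered from these steps (100% of values whole within 1e-06), which gave 7161690 to 9757594 reads per library. A value of 0 allows up to 3 reads, 2.49 to 3.38 normalized counts, for counting error only. Genes with 10 or more normalized counts in at least 5 libraries were tested with limma 3.58.1 in R 4.3.3 (trend, 4 group means over 20 libraries, 7 comparisons) on log2(normalized count + 1), on which scale changes of low genes are understated. P-values were Benjamini-Hochberg adjusted over 14630 genes (threshold 0.05). Alternatives used edgeR 4.0.16 and DESeq2 1.42.0 on recovered reads, TMM factors, pseudocounts of 0.5 and 5, other filters, a fit without trend, fits of 2 groups, and left-out libraries, and limma, edgeR and DESeq2 were tested on simulated data. Gene positions are from GENCODE M21 (GRCm38), similarity from BLAST 2.17.0, and start windows from RefSeq (GRCm38.p6, 42 members matched). Named were members past the threshold, the 3 with the smallest p where none passed, and the most abundant of each role group. From each other list only some of the genes past the threshold were described, not always those with the largest fold changes. Igkc, Igha, Cyp2d26 and Glrx, for example, were past it and are given by name only. Other genes (such as Gss, Gsr, Gsta4, Ggt6, Srxn1, Txnrd1 and Keap1) were added after their values were seen. Members and lists were chosen with earlier results of these data known. Replicates differed by more than sampling noise in all 40 pairs of libraries within groups (chi-square divided by its degrees of freedom, 3.88 to 97.7).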

Additional observations from a re-analysis of the deposited data

Results flagged for a closer look

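Of 88 groups of 5 mice looked at, 10 held a value far from the other 4, where chance gives about 1 in 20 groups. Tert+/+ old replicate 4, the library with the most albumin RNA, gave 3 of these: Nqo1 at 55.2 normalized counts against 115 to 129 in the other Tert+/+ old mice, Gsta3 at 247 against 368 to 390.4, and Ggt1 at 10445 against 6003 to 6834. Tert+/+ young replicate 1 gave 2: Gclm at 4912 against 2228 to 2633, and Gstk1 at 388 against 236 to 273. The part of either library's other differences in these values was not tested.

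Gstt1 was far from its group in G3 Tert-/- old replicate 2, with 978 normalized counts against 869 to 896, and in Tert+/+ young replicate 2, with 683 against 599 to 622. Gstm1 in G3 Tert-/- old replicate 1 had 3588 against 3017 to 3135. Mgst1, a membrane-bound transferase, had 254 in G3 Tert-/- young replicate 3 against 91.1 to 114. Gpx3 in Tert+/+ young replicate 3 had 90492 against 127269 to 135294.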

How the results depend on the processing

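Counts of members called differed from those reported under these alternatives. DESeq2 on recovered reads called 1 member (Gsta2) for genotype at 47 weeks and 2 (Gsta2 and Gsta3) for genotype over both ages. With age in Tert+/+ kidneys, limma without a trend called 2 (Gstm7 and Ugt2a3) and a fit of the 2 groups alone called 1 (Gstm7). Leaving out Tert+/+ young replicate 1 and Tert+/+ old replicate 4 together gave 13 with age in G3 Tert-/- kidneys, where neither library belongs to the groups compared and only the shared spread differs (Ggt6, Gpx1, Gss, Gstk1, Gstt2 and Ugt3a1 were added), and 13 over both genotypes (Gclc, Ggt6, Gpx6, Gss and Gstk1 were added). Leaving out 1 library at a time gave 5 to 10 with age in G3 Tert-/-, 2 to 6 in Tert+/+ and 8 to 11 over both genotypes, 0 to 0 for genotype at 47 and at 7 weeks and for their difference, and 0 to 1 for genotype over both ages. The count in Tert+/+ kidneys was 2 without Tert+/+ old replicate 1 or 5 or young replicate 3 or 4. All 8 calls over both genotypes were kept in all 20 of those fits. Of the named genes' values under alternatives, 869 kept their direction and side of the threshold, 40 lost the call, 4 gained one and 0 changed sign; the causes were not tested. Over all genes, DESeq2 called 52 against 14 for genotype at 47 weeks, 13 against 0 at 7 weeks, 56 against 4 over both ages, 530 against 327 with age in G3 Tert-/-, 211 against 95 with age in Tert+/+ kidneys and 7 against 1 for the difference, which limma without a trend or without both libraries left at 0. Limma without a trend called 7 genes and the fit of 2 groups 6 for genotype at 47 weeks, and the fit of 2 groups 53 with age in Tert+/+ kidneys. Leaving out 1 library, an alternative for all genes and for the other lists chosen after seeing the data, gave 2 to 19 genes for genotype at 47 weeks, with 2 without G3 Tert-/- old replicate 2 or 4 and 4 without Tert+/+ old replicate 1, 192 to 497 with age in G3 Tert-/- (192 without old replicate 5) and 56 to 125 in Tert+/+ kidneys (56 without old replicate 2). Genotype over both ages then had 0 to 7, and the difference 0 to 2. Without both libraries 661 genes passed with age in G3 Tert-/- kidneys. No paired analysis was possible because each library came from a different mouse and the labels give no litter. The replicate numbers used here were assigned within each group, because the labels carry none. The filter of 20 gives no value for Ugt2a3, and fits of 2 groups exist only for comparisons of 2 groups. Depth limits Gstp1, Ugt2a3 and the 7 untested members, which hold few reads.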
